A study of Homo sapiens with 33 samples.

Results

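The genes described here are TXNIP and ARRDC4, the best known targets of the glucose sensing transcription factor MondoA, together with MLXIP, which encodes MondoA, MLXIPL, which encodes its paralogue ChREBP, and KLF10, a further gene of the glucose response. They were chosen by name, with earlier results of these data known, so the calls below are not independent of that choice. Their rows were found in the deposited table by Ensembl identifier, 5 of 60675 genes. RNA was sequenced from HT29, an established human colorectal adenocarcinoma line, 24 h after treatment with vehicle or with one of 4 herbal formulas, each a 70% ethanol extract. Of these, Palmul-tang is made from the herbs of Sagunja-tang together with those of Samul-tang, and Sibjeondaebo-tang is Palmul-tang with added herbs. Every extract was given at 500 µg/mL (high), 100 µg/mL (medium) and 20 µg/mL (low). The 33 libraries form 13 groups: vehicle, 0.1% DMSO by the sample labels, has 3, each dose of Sagunja-tang or of Samul-tang has 2, and each dose of the other two formulas has 3.

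MondoA and ChREBP pair with the protein MLX and bind carbohydrate response elements in promoters when sugar phosphates accumulate in the cell. TXNIP binds and inhibits thioredoxin and, like its relative ARRDC4, belongs to the alpha-arrestins, a family of adaptors. TXNIP and ARRDC4 restrain glucose uptake by removing transporters from the cell surface. Both genes are widely read as outputs of MondoA, and TXNIP is often low in tumour cells with a high glycolytic rate. KLF10 encodes a zinc finger repressor that is also an early target of TGF-beta.

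Library totals, in units of 1000000 counts, were 31.1 to 35.6 for vehicle and 28.6 to 49.1 for extracts. Separate cultures are not mentioned for the replicates, and p-values therefore measure the spread among these samples alone, which may be technical. The sample codes start with one prefix in vehicle, another in Sagunja-tang and Samul-tang and yet another in the other two formulas, with no meaning given. A difference from vehicle and a difference in code cannot be told apart. Libraries also differed in how expression, relative to the mean of all libraries, went with gene length, and this differed between the groups. The Spearman correlation was 0.191 to 0.2 in vehicle, -0.084 to 0.215 in the 10 low-dose libraries (8 positive) and -0.323 to 0.351 at the medium dose. At the high dose it was -0.458 to -0.054 in the 8 libraries of Sagunja-tang, Palmul-tang and Sibjeondaebo-tang, lowest in Sagunja-tang replicate 2, and 0.142 and 0.172 with Samul-tang. The 10 colon epithelium markers summed to 12200 to 12700 CPM (counts per 1000000 counts of the library) in vehicle and 11500 to 14000 with extracts, the 7 fibroblast markers to at most 2.76, and the 7 leukocyte and endothelial markers to 8.24 to 11.2 in vehicle and 4.93 to 8.86 with extracts. The part of these markers in the results was not tested. Among the leukocyte and endothelial markers 2 had a median over 1 CPM, CD68 at 5.60 and PECAM1 at 1.54. The medians of PTPRC, CD3E and CDH5 were 0. As these are bulk samples of 1 cell line, fewer cells expressing a gene and less of its RNA per cell cannot be told apart.

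The promoters of the 2 targets are shown because carbohydrate response elements are built from paired E-box-like motifs. The sequences are from RefSeq (GRCh38.p14), 5′ to 3′ on each gene's own strand, and end at the base before the annotated gene start, with every CACGNG on either strand in capitals. TXNIP is shown for chr1:145996601-145996829 (minus strand) and ARRDC4 for chr15:97960453-97960697 (plus strand).
TXNIP: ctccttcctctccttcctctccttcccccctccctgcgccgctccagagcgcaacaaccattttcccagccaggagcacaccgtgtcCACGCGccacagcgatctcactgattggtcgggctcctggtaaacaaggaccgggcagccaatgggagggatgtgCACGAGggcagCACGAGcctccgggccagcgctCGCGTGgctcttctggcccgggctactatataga
ARRDC4: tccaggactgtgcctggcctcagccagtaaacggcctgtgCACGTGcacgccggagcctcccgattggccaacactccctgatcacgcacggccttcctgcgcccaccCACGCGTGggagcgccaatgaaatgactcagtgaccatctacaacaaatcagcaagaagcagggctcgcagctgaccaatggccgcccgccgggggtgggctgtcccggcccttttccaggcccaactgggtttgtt
The TXNIP stretch of 229 bases holds 4 matches to CACGNG, which begin 142, 67, 56 and 34 bases before the annotated start. The matches at 67 and 56 lie on the gene's strand, downstream of a CCAAT that begins 84 bases before the start. The ARRDC4 stretch of 245 bases holds 3 matches, at 205, 137 and 135 bases, of which the last 2 overlap and the first is the palindrome CACGTG. TXNIP has 2 matches to CCAAT and ARRDC4 has 3, counted on both strands. Of 35116 promoter windows of 300 bases, 30.5% held CACGNG at least once and 8.16% held it 2 or more times, 7.26% held CACGTG and 34.6% held CCAAT. These letters were chosen after the sequences were seen, and a match describes the sequence only.

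All 5 genes passed the filter on low counts, and their levels differed widely. Per kilobase of exon, the median level over the 33 libraries was 12.9 CPM for KLF10, 12.8 for TXNIP, 11.7 for MLXIP, 2.12 for ARRDC4 and 0.117 for MLXIPL. KLF10, TXNIP and MLXIP lay close together, and the exon length of MLXIP, 13.905 kb over all annotated exons, makes its place in that order depend on the isoform used. MLXIPL was read from 13 to 43 counts a library, so its values carry the largest counting error. The partner gene MLX had a median of 112 CPM over the libraries.

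**Figure D1:**
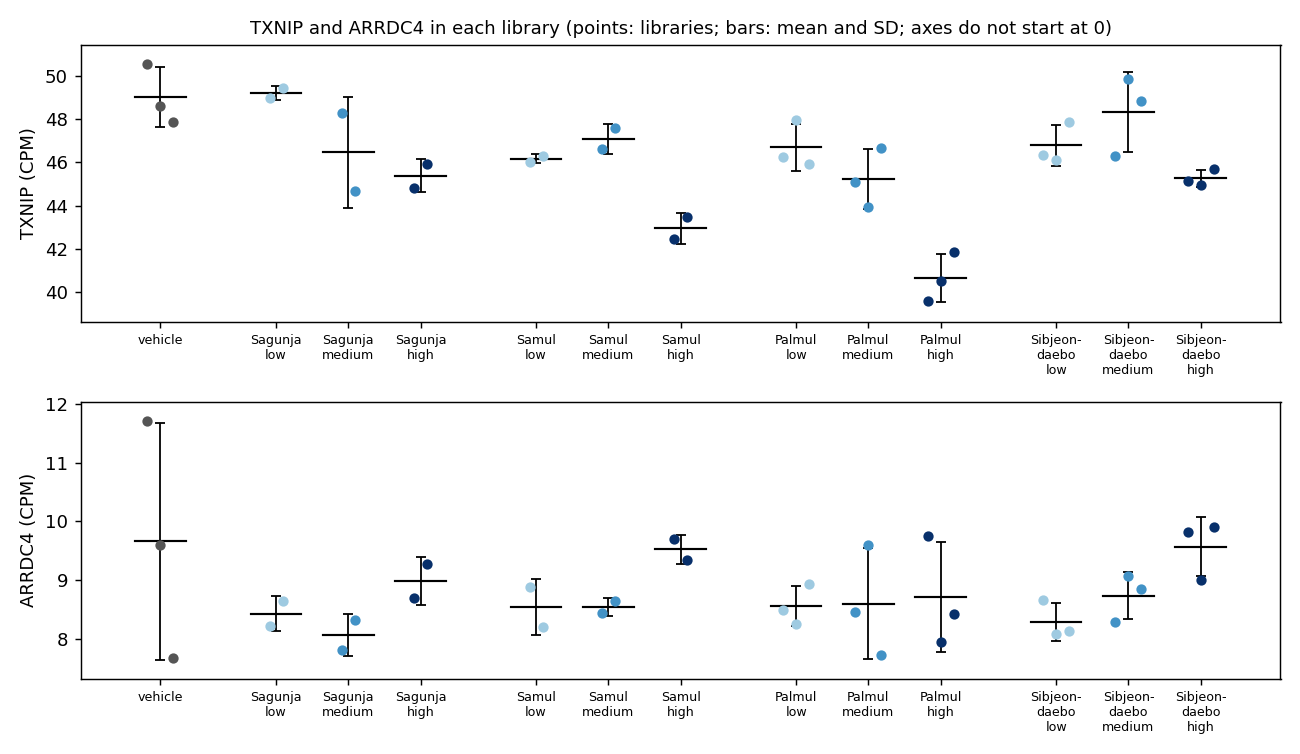
CPM of TXNIP (top) and ARRDC4 (bottom) in each of 33 libraries, by extract and dose; points are libraries, horizontal lines are means and bars are SD, and the axes do not start at 0. All high-dose TXNIP libraries lie at or below 45.9 CPM and all vehicle libraries at or above 47.9 CPM, while the 3 vehicle libraries of ARRDC4 span 7.68 to 11.7 CPM.

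TXNIP was lower at the high dose of every extract than in vehicle, and most so with Palmul-tang. TXNIP (ENSG00000265972, chromosome 1, 145992435 to 145996600, minus strand) read 50.6, 48.6 and 47.9 CPM in the vehicle libraries. At the high dose it read 44.8 and 45.9 CPM with Sagunja-tang and 42.4 and 43.5 CPM with Samul-tang. With high-dose Palmul-tang it read 39.6, 40.5 and 41.8 CPM, and with high-dose Sibjeondaebo-tang 45.1, 44.9 and 45.7 CPM. No high-dose library reached the lowest vehicle library. The share of all tested genes whose libraries separate this fully was not counted, here or where libraries are said below not to overlap. In edgeR's quasi-likelihood test with Benjamini-Hochberg adjustment over 17432 genes, TXNIP fell by 0.27 ± 0.037 (SE) on the log2 scale with high-dose Palmul-tang (adjusted p = 3.76e-06), from 49.0 ± 1.39 to 40.7 ± 1.13 CPM (SD, n = 3 and 3). It fell by 0.19 ± 0.041 with Samul-tang (adjusted p = 0.00106 in edgeR), to 43.0 ± 0.715 CPM (SD, n = 2). The falls were smaller with Sibjeondaebo-tang, 0.12 ± 0.037 (adjusted p = 0.0137 in edgeR), and with Sagunja-tang, 0.11 ± 0.042 (adjusted p = 0.0374 in edgeR).

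These are modest differences, the largest being a level 0.829 times that of vehicle. At the high dose, edgeR called 36.7% of all tested genes against vehicle for Sagunja-tang, 27.5% for Samul-tang, then 32.1% for Palmul-tang and 39.6% for Sibjeondaebo-tang, so that a call there is common. Of the 5 genes, 2, 3, 2 and 2 were called in these comparisons, in that order, all lower, where 18%, 12.5%, 14.8% and 19.1% of all genes were called lower. The counts behind these shares moved by more than 1.5 times when 1 library was left out, for the 2 extracts with 2 libraries. Genes called numbered 6391 with Sagunja-tang but 2884 without its replicate 2, and 4799 with Samul-tang but 2285 without its replicate 2. The TXNIP calls with Sagunja-tang and Sibjeondaebo-tang did not survive without vehicle replicate 1, where TXNIP was -0.088 (adjusted p = 0.133 in edgeR) and -0.093 (adjusted p = 0.0751 in edgeR). Without vehicle replicate 2 the adjusted p for Sagunja-tang was 0.0547 in edgeR, and it was 0.261 and 0.0596 without either of its own libraries. Those with Samul-tang and Palmul-tang stayed called under every alternative tried.

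At the medium dose edgeR called TXNIP with Palmul-tang and with no other extract, a fall of 0.12 ± 0.037 (adjusted p = 0.0287 in edgeR), to 45.1, 43.9 and 46.7 CPM. That call was lost without vehicle replicate 1 (adjusted p = 0.111 in edgeR), without vehicle replicate 2 (0.0561) and without medium-dose replicate 1 (0.0795) or 2 (0.141). With the other extracts at the medium dose the log2 differences from vehicle were -0.076, -0.057 and -0.020 for Sagunja-tang, Samul-tang and Sibjeondaebo-tang. At the low dose they lay between -0.086 and 0.0055, and TXNIP was not called in any of those 4 comparisons (smallest adjusted p = 0.149 in edgeR). Of all genes, 16.4%, 20.1%, 20% and 26% were called at the medium dose, and the low dose had 21.9%, 17.6%, 20.3% and 22%, with the extracts in the order of the high dose. These counts also moved when a library was left out. Without replicate 2 of the group itself, genes called fell from 2867 to 429 at the medium and from 3812 to 1064 at the low dose of Sagunja-tang, and from 3512 to 633 and from 3067 to 776 for Samul-tang. For Palmul-tang the lowest counts were 1591 of 3483 and 1663 of 3547, also without replicate 2. For Sibjeondaebo-tang they were 2886 of 4538 and 2177 of 3839, without replicate 3.

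High against low dose within an extract leaves out the vehicle libraries. All high-dose TXNIP libraries were below all low-dose libraries in each of the 4 extracts. How many of all tested genes separate in this way was not counted, and it can occur without a call. TXNIP fell with Palmul-tang by 0.20 ± 0.037 (adjusted p = 0.000328 in edgeR), where the low-dose libraries read 46.2, 48.0 and 45.9 CPM and 14.4% of all genes were called. The differences were -0.12 with Sagunja-tang (adjusted p = 0.109), -0.10 with Samul-tang (0.174) and -0.048 with Sibjeondaebo-tang (0.346), none called by edgeR, in comparisons where 7.19%, 7.53% and 29.9% of all genes were called. The count for Sagunja-tang, 1254 genes, was 140 without high-dose replicate 2 and 4222 without high-dose replicate 3, and that for Samul-tang, 1313, was 547 to 682 with 1 library left out. Averaged over the 4 extracts, TXNIP fell by 0.12 ± 0.02 from low to high dose (adjusted p = 4.08e-05 in edgeR, with 38.5% of all genes called). The test of whether this difference varied among the 4 extracts gave an adjusted p of 0.364 in edgeR (unadjusted 0.0505, 1.73% of genes called), so the larger fall with Palmul-tang is not shown to differ from the others. Without high-dose Sagunja-tang replicate 3, 1969 genes were called for this difference in place of 301. With the trend of each library with gene length removed, the mean fall of TXNIP had a log2 value of -0.15 (adjusted p = 1.33e-06 in edgeR), and the falls with Sagunja-tang (-0.16, adjusted p = 0.0385) and Sibjeondaebo-tang (-0.10, adjusted p = 0.0428) passed the threshold too.

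The step from medium to high dose was called for 1 extract. With Palmul-tang, TXNIP fell by 0.15 ± 0.037 from medium to high dose (adjusted p = 0.0085 in edgeR), in a comparison where 6.96% of genes were called. The same step was -0.034 with Sagunja-tang, -0.13 with Samul-tang and -0.095 with Sibjeondaebo-tang, none called by edgeR, where 6.91%, 2.38% and 14.3% of genes were called. The Sagunja-tang count, 1205 genes, was 47 without high-dose replicate 2 and 4434 without high-dose replicate 3. From low to medium dose the differences of TXNIP were -0.082 with Sagunja-tang and 0.029 with Samul-tang, where 0% and 0.00574% of genes were called. They were -0.045 with Palmul-tang and 0.047 with Sibjeondaebo-tang, where 0.00574% and 0.0975% were, and TXNIP was called in none of the 4. The Sibjeondaebo-tang step from medium to high dose passed the threshold without medium-dose replicate 1 (-0.12, adjusted p = 0.0387 in edgeR). The Palmul-tang step was not called without high-dose replicate 1 (adjusted p = 0.0603 in edgeR) or medium-dose replicate 3 (0.0632).

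The extracts were compared with each other at the high dose in all 6 pairs. TXNIP was lower with Palmul-tang than with Sagunja-tang by 0.16 ± 0.041 on the log2 scale (adjusted p = 0.043 in edgeR, 1.82% of genes called) and higher with Sibjeondaebo-tang than with Palmul-tang by 0.15 ± 0.037 (adjusted p = 0.0107 in edgeR, 3.87% of genes called). Palmul-tang and Samul-tang differed by -0.080 (95% interval -0.16 to 0.0043), which edgeR did not call (0.138% of genes called). In the other 3 pairs TXNIP was not called either, at -0.080 for Samul-tang against Sagunja-tang, -0.0044 for Sibjeondaebo-tang against Sagunja-tang and 0.075 for Sibjeondaebo-tang against Samul-tang, where 5.47%, 11.8% and 7.73% of genes were called. The order of mean levels was Palmul-tang at 40.7 CPM, Samul-tang at 43.0, Sibjeondaebo-tang at 45.3 and Sagunja-tang at 45.4. Libraries of Sibjeondaebo-tang and Sagunja-tang overlapped, and those of no other pair did. Both calls rest on few libraries, as does the count of genes called for Palmul-tang against Sagunja-tang, 317, which was 23 without Sagunja-tang replicate 2 and 3670 without Sagunja-tang replicate 3. The first was lost without Sagunja-tang replicate 2 (adjusted p = 0.216 in edgeR) and without Palmul-tang replicate 1 (0.139) or 2 (0.106). The second was lost without Palmul-tang replicate 1 (0.0713) or Sibjeondaebo-tang replicate 3 (0.0523). Palmul-tang and Sagunja-tang also differ in their code prefix, and at the low dose the extracts of one prefix differed from those of the other by -0.028 for TXNIP (0% of genes called). The extracts of the prefixes are also different formulas, so that value does not measure the prefix alone, and it does not cover the high dose.

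ARRDC4, the second target, was called in no comparison. ARRDC4 (ENSG00000140450, chromosome 15, 97960698 to 97973838, plus strand) read 11.7, 9.60 and 7.68 CPM in the vehicle libraries, which hold both the highest and the lowest value of all 33. With extracts it read 7.94 to 9.90 CPM at the high dose (median 9.32), 7.73 to 9.60 at the medium dose (median 8.45) and 8.08 to 8.93 at the low dose (median 8.37). Every extract group overlapped vehicle. Of the 33 comparisons edgeR called none for ARRDC4, and 4 had an unadjusted p under 0.05 (0.0234, 0.0312, 0.0318 and 0.0384). DESeq2 called none of the 12 comparisons with vehicle.

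Against vehicle the log2 differences of ARRDC4 ran from -0.26 (medium-dose Sagunja-tang, 95% interval -0.49 to -0.038) to -0.015 (high-dose Sibjeondaebo-tang, 95% interval -0.21 to 0.18), all 12 negative. These values turn on the vehicle libraries. Without vehicle replicate 3 edgeR called ARRDC4 lower in 9 of the 12 comparisons, with differences from -0.40 to -0.15, and without vehicle replicate 1 in 0 of 12, with 5 of the differences positive.

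Within the extracts, which leaves vehicle out, the high-dose libraries of ARRDC4 lay above the low-dose ones in 3 of 4 extracts, a separation not counted over all genes. The libraries did not overlap for Sagunja-tang (8.70 and 9.28 against 8.22 and 8.64 CPM), Samul-tang (9.70 and 9.35 against 8.88 and 8.20 CPM) or Sibjeondaebo-tang (9.82, 9.0 and 9.90 against 8.67, 8.08 and 8.14 CPM). They overlapped for Palmul-tang, the extract with the largest fall of TXNIP. The log2 differences were 0.096 for Sagunja-tang, 0.16 for Samul-tang, 0.026 for Palmul-tang and 0.21 for Sibjeondaebo-tang, none called by edgeR (adjusted p from 0.102 to 0.905). The Palmul-tang difference was -0.062 without high-dose replicate 1 and -0.010 without low-dose replicate 2. The mean over the 4 extracts was 0.12 ± 0.054 (adjusted p = 0.0752 in edgeR). With the trend of each library with gene length removed it was 0.092 (adjusted p = 0.184 in edgeR), and the Palmul-tang difference was 7e-04. The mean passed the threshold with only the high-dose and low-dose groups in the fit (adjusted p = 0.0259) and without high-dose Palmul-tang replicate 2 (0.0496). The Sibjeondaebo-tang difference also passed it with only its own groups in the fit (adjusted p = 0.0346). With the length trend removed that difference was 0.16 (adjusted p = 0.209 in edgeR).

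**Figure D2:**
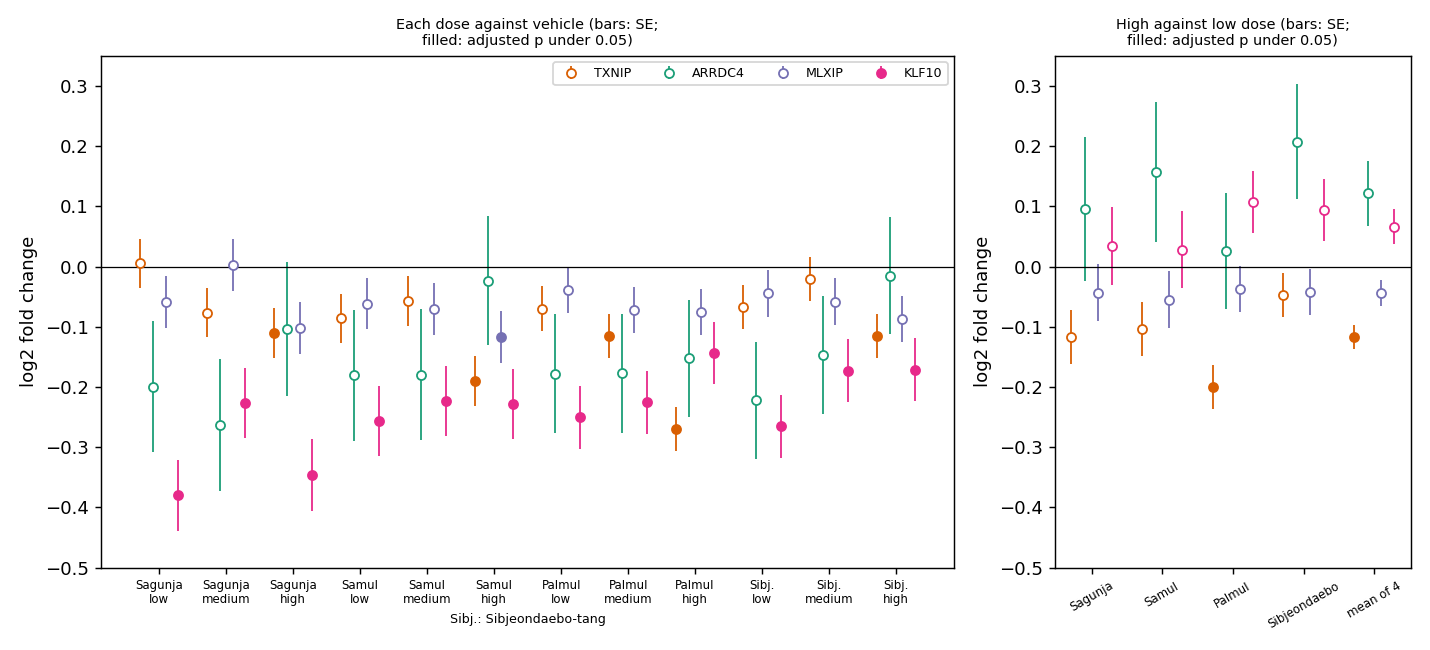
Log2 fold changes with SE of TXNIP, ARRDC4, MLXIP and KLF10, on the left for each dose of each extract against vehicle and on the right for high against low dose within an extract and for the mean of the 4; filled points have an adjusted p under 0.05 in edgeR. On the right TXNIP lies below 0 and ARRDC4 above 0 in each extract, and on the left every KLF10 point is filled and below 0.

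The 2 targets were set side by side within each library. Over the 33 libraries the Pearson correlation of log2 CPM between TXNIP and ARRDC4 was -0.042 and the Spearman correlation -0.222, a description of libraries that share groups and depth. After the group means were taken out, the Pearson correlation was 0.035. Per kilobase of exon, the level of TXNIP was 5.77 to 6.70 times that of ARRDC4 in the 10 low-dose libraries and 4.56 to 5.79 times in the 10 high-dose libraries, with medians of 6.38 and 5.39. The medium dose spanned 5.14 to 6.94 and vehicle 4.85 to 7.00, so that vehicle covered most of the range of both doses.

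**Figure D3:**
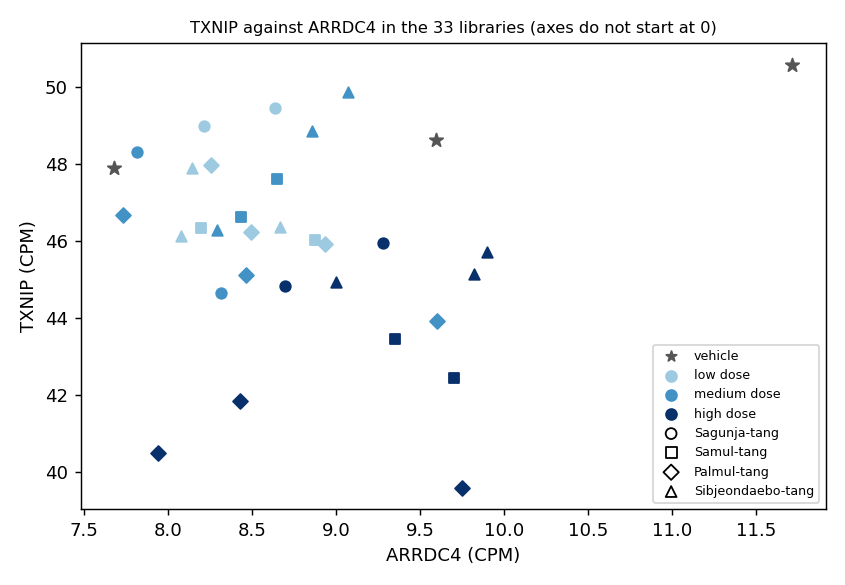
TXNIP against ARRDC4, both in CPM, with each point 1 of 33 libraries, coloured by dose and shaped by extract; the axes do not start at 0. The vehicle libraries spread from left to right across ARRDC4, and the 3 high-dose Palmul-tang libraries lie lowest on TXNIP, at 39.6 to 41.8 CPM.

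TXNIP and ARRDC4 were also compared with 10628 other tested genes of standard name whose log2 CPM averaged 2 or more. Those most like TXNIP over the 33 libraries were CLIC3 (Pearson r = 0.818), HBP1 (0.789), GNAI1 (0.787), CD200 (0.783), GASK1B (0.771) and IDH2 (0.769). CLIC3 encodes a chloride intracellular channel protein, HBP1 an HMG-box repressor and IDH2 the mitochondrial isocitrate dehydrogenase. The least alike were NQO2 (-0.821), GFOD1 (-0.787) and CHORDC1 (-0.781), and the median over all compared genes was -0.061. Those most like ARRDC4 were EAF1 (0.686), KDM1A (0.683), SLC39A14 (0.678), USP38 (0.668), INPP1 (0.66) and EPHA1 (0.657), and the least alike were RALGPS1 (-0.691), ASIC1 (-0.676) and SUOX (-0.674). The lists share no gene, and all values are across libraries that share groups and depth.

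**Figure D4:**
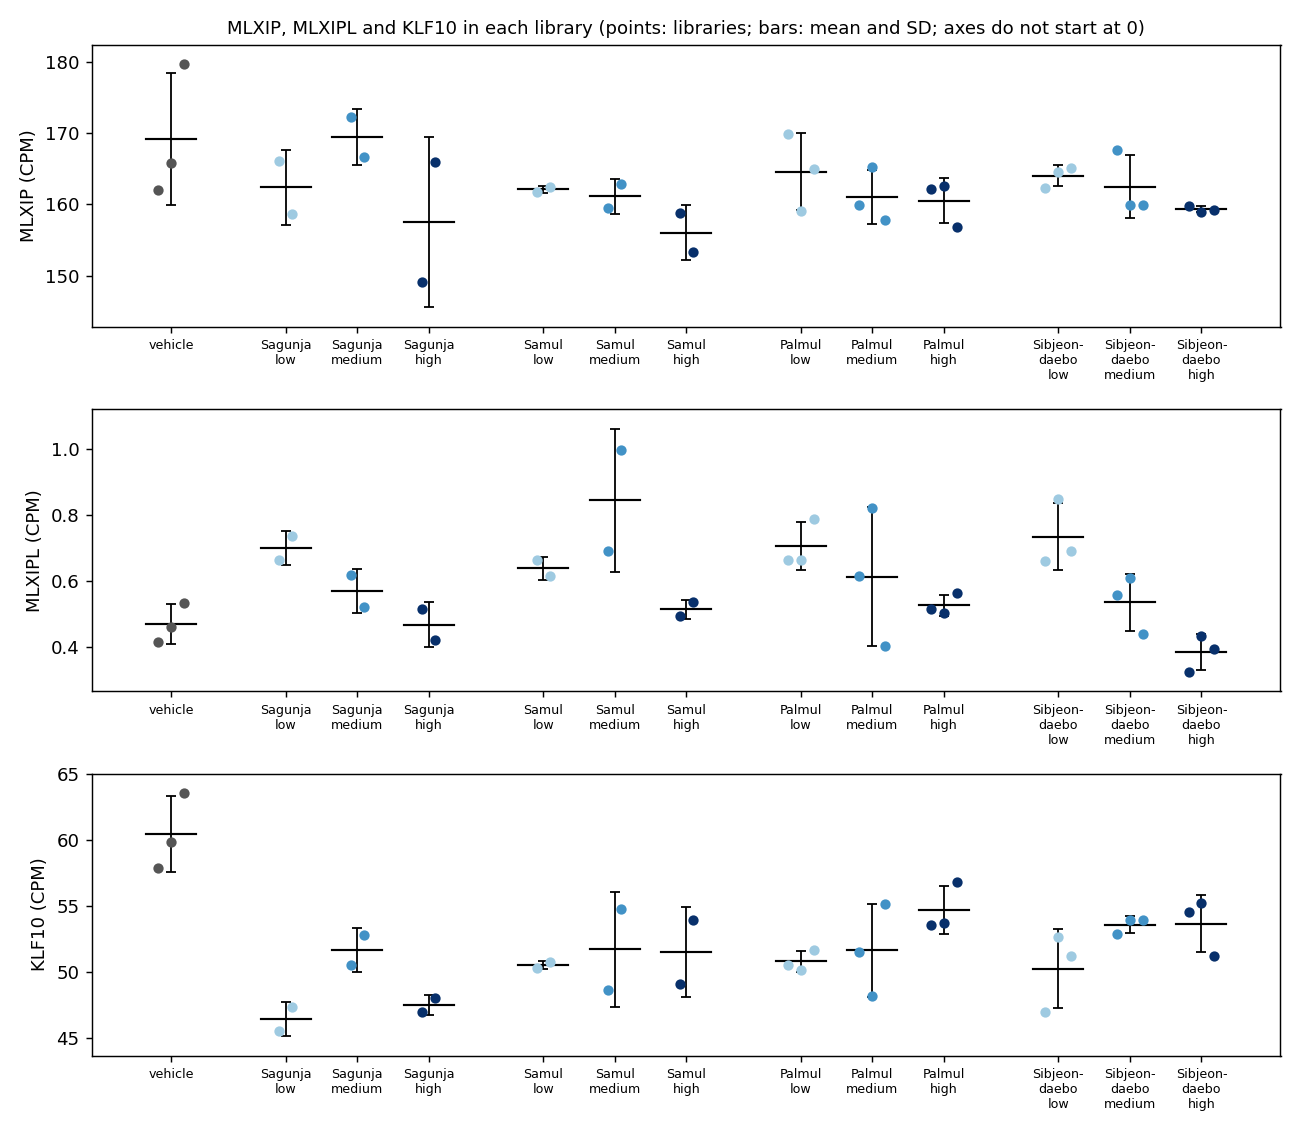
CPM of MLXIP, MLXIPL and KLF10 in each of 33 libraries, by extract and dose; points are libraries, horizontal lines are means and bars are SD, and the axes do not start at 0. All 30 extract libraries of KLF10 lie below the 3 vehicle libraries, and all high-dose MLXIPL libraries (at most 0.563 CPM) lie below all low-dose ones (at least 0.614 CPM).

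MLXIP, the gene of MondoA itself, differed little between groups. MLXIP (ENSG00000175727, chromosome 12, 122078722 to 122147347, plus strand) read 162, 166 and 180 CPM in vehicle, 149 to 166 CPM at the high dose, 158 to 172 at the medium dose and 159 to 170 at the low dose. It was called in 1 of 33 comparisons, high-dose Samul-tang against vehicle, with a fall of 0.12 ± 0.043 (adjusted p = 0.0435 in edgeR, with 27.5% of all genes called and 12.5% called lower). That call was lost without vehicle replicate 3 (-0.072, adjusted p = 0.256 in edgeR) and without Samul-tang replicate 2 (0.0842) or 3 (0.234). From medium to high dose of Sagunja-tang, MLXIP differed by -0.10, not called by edgeR, and by -0.19 without high-dose replicate 3. From low to high dose MLXIP averaged -0.044 ± 0.021 (adjusted p = 0.105 in edgeR), and with the trend of each library with gene length removed this was 0.0014. It was called without high-dose Sagunja-tang replicate 3 (-0.072, adjusted p = 0.00442 in edgeR), without low-dose Sagunja-tang replicate 3 (0.0482) and without low-dose Palmul-tang replicate 2 (0.0317). Against vehicle, high-dose Sagunja-tang was called without vehicle replicate 1 (-0.13, adjusted p = 0.0245) and without its own replicate 3 (-0.18, adjusted p = 0.00309), and high-dose Sibjeondaebo-tang without vehicle replicate 1 (-0.12, adjusted p = 0.0273).

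MLXIPL, the gene of ChREBP, was lower at the high than at the low dose. MLXIPL (ENSG00000009950, chromosome 7, 73593194 to 73624543, minus strand) read 0.324, 0.433 and 0.394 CPM at high-dose and 0.661, 0.850 and 0.692 CPM at low-dose Sibjeondaebo-tang. This was a fall of 0.93 ± 0.22 on the log2 scale (adjusted p = 0.00215 in edgeR, with 29.9% of all genes called). The differences for Sagunja-tang, Samul-tang and then Palmul-tang were -0.59, -0.31 and -0.41, none called. In all 4 extracts every high-dose library was below every low-dose one, a separation not counted over all genes. The mean over the extracts was a fall of 0.56 ± 0.12 (adjusted p = 0.000583 in edgeR, with 38.5% of all genes called). Vehicle, at 0.414, 0.460 and 0.534 CPM, lay with the high dose, and against it edgeR called MLXIPL once, higher with medium-dose Samul-tang by 0.85 ± 0.24 (adjusted p = 0.0145). That group held 0.691 and 0.999 CPM, and the call was lost without the latter, replicate 3 (0.56, adjusted p = 0.293 in edgeR).

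KLF10 was lower than vehicle with every extract at every dose. KLF10 (ENSG00000155090, chromosome 8) read 57.9, 59.8 and 63.5 CPM in vehicle, and 47.0 to 56.8 CPM at the high dose (median 53.6), 48.2 to 55.2 at the medium dose (median 52.8) and 45.5 to 52.6 at the low dose (median 50.4). No extract library reached the lowest vehicle library, a separation not counted over all genes. In edgeR it was called lower in 12 of 12 comparisons, with log2 differences from -0.38 ± 0.059 with low-dose Sagunja-tang (adjusted p = 9.75e-05) to -0.14 ± 0.052 with high-dose Palmul-tang (adjusted p = 0.0341). Of all genes, 18%, 12.5%, 14.8% and 19.1% were called lower at the high dose, with the extracts in the order used for TXNIP. In the same order the medium dose had 8.05%, 9.27%, 9.63% and 12%, and the low dose had 10.7%, 8.71%, 9.74% and 10.9%. How many of all genes were called lower in all 12 comparisons was not counted. The 12 comparisons share the 3 vehicle libraries, and without vehicle replicate 3 the calls numbered 8 of 12. Single calls of KLF10 were also lost without replicate 2 of high-dose (adjusted p = 0.132), medium-dose (0.284) or low-dose Samul-tang (0.0649), of medium-dose Sagunja-tang (0.176) and of vehicle (0.052, for high-dose Palmul-tang). The high-dose calls were lost without Palmul-tang replicate 1 (0.108) or 2 (0.102) and without Sibjeondaebo-tang replicate 3 (0.0645), each for its own extract in edgeR.

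Within the extracts KLF10 was not called by dose. From low to high dose it differed by 0.034 with Sagunja-tang, by 0.028 with Samul-tang, by 0.11 with Palmul-tang, where the libraries did not overlap, and by 0.094 with Sibjeondaebo-tang, none called by edgeR (mean 0.066 ± 0.029, adjusted p = 0.0739). With the trend of each library with gene length removed that mean was 0.035 (adjusted p = 0.376 in edgeR). The mean passed the threshold with the replicate number as a block (adjusted p = 0.0425) and without low-dose replicate 2 (0.0475) or high-dose replicate 3 (0.0489) of Sibjeondaebo-tang. Between extracts at the high dose it was 0.20 higher with Palmul-tang than with Sagunja-tang and 0.17 higher with Sibjeondaebo-tang, and edgeR called neither (adjusted p = 0.0675 and 0.0509). DESeq2 called both (adjusted p = 0.0292 and 0.0333).

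**Figure D5:**
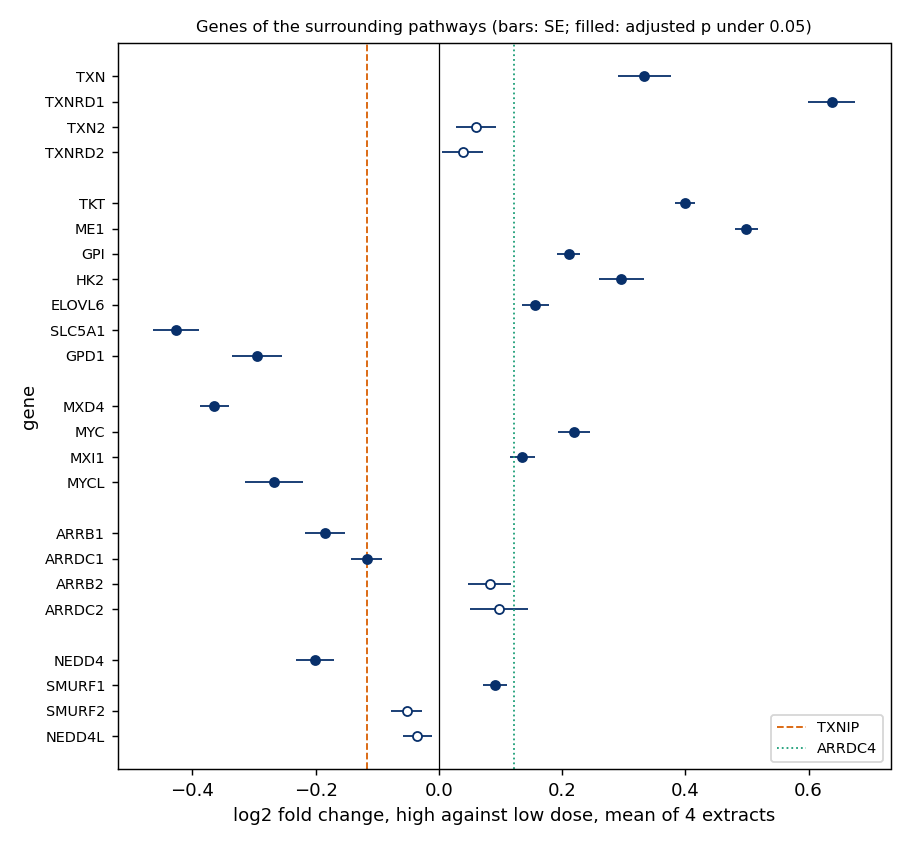
Log2 fold change with SE from low to high dose, averaged over the 4 extracts, for named genes of the thioredoxin system, of glucose and lipid metabolism, of the MAX and MLX network, of other arrestins and of their ubiquitin ligases, from top to bottom; filled points have an adjusted p under 0.05 in edgeR, and the lines mark TXNIP and ARRDC4. TXNRD1 at 0.64 and ME1 at 0.50 lie farthest to the right and SLC5A1 at -0.43 farthest to the left. The genes shown were picked from their lists by smallest p in this same contrast.

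The genes around these 5 were taken from lists by function and read in the mean high against low contrast, where 19.6% of all genes were called higher and 18.9% lower by edgeR. In the thioredoxin system, the proteins TXNIP binds and those that reduce them, 2 of 5 tested genes rose and 0 fell. TXN, cytosolic thioredoxin, rose by 0.33 ± 0.044 (adjusted p = 6.26e-07) and TXNRD1, its reductase, by 0.64 ± 0.039 (adjusted p = 3.25e-13). The mitochondrial pair TXN2 and TXNRD2 differed by 0.061 and 0.039, not called. The median of the list was 0.061, against -0.008 for all tested genes.

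Of 12 tested genes for glucose uptake and phosphorylation, 6 rose and 2 fell (median 0.074). GPI, glucose phosphate isomerase, rose by 0.21 ± 0.018 and HK2, a hexokinase, by 0.30 ± 0.037, while SLC5A1, the sodium glucose cotransporter, fell by 0.43 ± 0.038 (adjusted p at most 2.93e-07 in edgeR). Of 11 tested ChREBP targets of lipid synthesis and glycolysis, 3 rose and 3 fell (median -0.02). TKT, transketolase, rose by 0.40 ± 0.016, ME1, malic enzyme, by 0.50 ± 0.019 and ELOVL6, a fatty acid elongase, by 0.16 ± 0.021, and GPD1, glycerol phosphate dehydrogenase, fell by 0.29 ± 0.04 (adjusted p at most 1.16e-06 in edgeR). TKT and ME1 are also known targets of NRF2, as is TXNRD1.

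The MAX and MLX network, the dimer partners and rivals of MondoA, had 3 of 10 tested genes higher and 3 lower (median -0.037). MYC rose by 0.22 ± 0.026 and MXI1, a repressor, by 0.14 ± 0.021, while MXD4, another repressor, fell by 0.36 ± 0.024 and MYCL by 0.27 ± 0.047 (adjusted p at most 4.13e-05 in edgeR). Among the other arrestins 2 of 5 fell and 0 rose (median 0.055): ARRB1, a beta-arrestin, by 0.18 ± 0.032 and ARRDC1 by 0.12 ± 0.025. ARRB2 and ARRDC2 differed by 0.082 and 0.098, not called. Of 7 ubiquitin ligases that bind arrestins, NEDD4 fell by 0.20 ± 0.03 and SMURF1 rose by 0.092 ± 0.02, and 5 were not called, among them SMURF2 at -0.052 and NEDD4L at -0.035 (median -0.024).

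For KLF10 the lists were its pathway and its family. Of 13 tested genes of the TGF-beta pathway 3 rose and 3 fell (median -0.024). The ligand gene TGFB1 rose by 0.22 ± 0.049, SMAD3, a signal transducer, by 0.11 ± 0.021 and the target gene ID1 by 0.28 ± 0.047, and ID2 fell by 0.37 ± 0.037 (adjusted p at most 0.000627 in edgeR). Of 10 other KLF factors tested 2 rose and 2 fell (median -0.005). KLF16 rose by 0.16 ± 0.032 and KLF5 by 0.12 ± 0.025, and KLF6 fell by 0.12 ± 0.019 and KLF3 by 0.083 ± 0.025 (adjusted p at most 0.00999 in edgeR). In each of these lists the share of genes called is to be read against the 38.5% called among all genes.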

How the data were processed

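HT29 RNA-seq libraries, 33 in 13 groups of extract and dose as labelled, were analysed. Per the labels' protocols, sequencing was stranded, with paired reads of 100 bp. FastQC 0.11.9, Trim Galore 0.6.5, STAR 2.7.3a and RSEM 1.3.3 were used with hg38, per the submitters' processing notes, and the annotation release is not given in the sources used here. The deposited values are expected counts per gene, of which 9.45% were not whole, and they were rounded. Of 273 columns, 33 were mapped to samples and 240 were not used.

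edgeR 4.0.16 in R 4.3.3 was run on 17432 genes that passed filterByExpr (minimum count 10), with TMM and a single model of all 13 groups. Its quasi-likelihood test gave 33 comparisons, with Benjamini-Hochberg adjustment over the tested genes at a threshold of 0.05. The SE is the absolute log2 fold change divided by the square root of F, and intervals are 95%. CPM use TMM library sizes. Positions and exon lengths are from GENCODE 29, in which 57055 genes were found. The tests were run on simulated counts with the same spread for every gene and with changes larger than those of TXNIP and KLF10. That check therefore does not cover differences of their size. DESeq2 1.42.0 and the other alternatives are in the closing section. The 5 genes and the lists were chosen with earlier results of these data known. Named genes are the 5, up to 4 of each list by smallest p in the mean high against low contrast (MLX was added after its value was seen), and the genes most and least like TXNIP and ARRDC4. A result under this rule is not reported here. The labels give 0.1% DMSO for vehicle and the series text another percentage, which was not settled.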

Additional observations from a re-analysis of the deposited data

Results flagged for a closer look

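From low to medium dose, some genes moved in opposite directions in different extracts, with no overlap between the libraries of the 2 doses within each extract named. TXNIP was higher at the medium dose in both Samul-tang libraries (log2 difference 0.029) and lower in both Sagunja-tang libraries (-0.082). MLXIPL was higher at the medium dose of Samul-tang (0.41) and lower with Sagunja-tang (-0.29) and Sibjeondaebo-tang (-0.46). None of these 5 differences was called by edgeR, and the difference between extracts was not tested for this dose step. How many of all genes separate in this way was not counted.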

How the results depend on the processing

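The 33 comparisons were recomputed with DESeq2, RLE size factors, no low-count filter, the replicate number as a block, the gene length trend removed, only the groups compared, and each library left out in turn. The falls of TXNIP with high-dose Samul-tang and high-dose Palmul-tang against vehicle, with high against low dose of Palmul-tang and in the mean high against low contrast stayed called under every one of these. So did the falls of MLXIPL with high against low dose of Sibjeondaebo-tang and in the mean high against low contrast. Where a call was lost or gained or a sign changed, the cause was not tested. All 91 sign changes among the members lay between values that were not called, 11 for TXNIP, 32 for ARRDC4, 27 for MLXIP, 7 for MLXIPL and 14 for KLF10. DESeq2 gave no adjusted p for MLXIPL in 24 of the 33 comparisons, 10 of them with vehicle, nor for ARRDC4 in 1, and these have no value. For MLXIPL it gave adjusted p = 0.0154 in high against low dose of Sibjeondaebo-tang and 0.00577 in the mean high against low contrast. With only the groups compared, a comparison of 2 groups of 2 libraries rested on few degrees of freedom. Where only 1 library of a group remained, its spread was taken from the other groups.

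Same-numbered libraries of different extract groups deviated from their group means with a median correlation of 0.027 (147 pairs, 16 above 0.1, highest 0.172). Those of extract and vehicle had one of 0.015 (30 pairs, 0 above 0.1). The 147 pairs mix libraries of the same and of different code prefixes, so pairing within a prefix was not tested. The replicate block changed no call of TXNIP or ARRDC4, and its changes for the other members stand in the paragraph on settings. The settings changed the log2 fold changes of single genes as follows. ARRDC4 changed sign without a call with DESeq2 at -0.0012 (Samul-tang medium against low). KLF10 gained a call with DESeq2 at 0.20 (Palmul-tang against Sagunja-tang at high dose) and 0.18 (Sibjeondaebo-tang against Sagunja-tang at high dose). TXNIP lost its call with DESeq2 at -0.11 (high Sagunja-tang against vehicle). ARRDC4 changed sign without a call with RLE size factors at -0.0011 (Samul-tang medium against low). KLF10 gained a call with RLE size factors at 0.18 (Sibjeondaebo-tang against Sagunja-tang at high dose). MLXIPL gained a call with RLE size factors at 0.65 (low Sibjeondaebo-tang against vehicle). ARRDC4 changed sign without a call without the low-count filter at -0.0058 (Palmul-tang medium against low). TXNIP changed sign without a call without the low-count filter at 0.0028 (Sibjeondaebo-tang against Sagunja-tang at high dose). KLF10 gained a call without the low-count filter at 0.21 (Palmul-tang against Sagunja-tang at high dose) and 0.18 (Sibjeondaebo-tang against Sagunja-tang at high dose). KLF10 lost its call without the low-count filter at -0.13 (high Palmul-tang against vehicle). MLXIP lost its call without the low-count filter at -0.11 (high Samul-tang against vehicle). MLXIPL lost its call without the low-count filter at 0.86 (medium Samul-tang against vehicle). TXNIP lost its call without the low-count filter at -0.11 (high Sagunja-tang against vehicle), -0.10 (high Sibjeondaebo-tang against vehicle), -0.11 (medium Palmul-tang against vehicle), -0.15 (Palmul-tang against Sagunja-tang at high dose), -0.15 (Palmul-tang high against medium) and 0.16 (Sibjeondaebo-tang against Palmul-tang at high dose). ARRDC4 changed sign without a call with the replicate block at 0.013 (high Samul-tang against vehicle), -0.0020 (Palmul-tang medium against low) and -0.026 (Sibjeondaebo-tang against Samul-tang at high dose). TXNIP changed sign without a call with the replicate block at -0.0013 (low Sagunja-tang against vehicle) and 0.0023 (Sibjeondaebo-tang against Sagunja-tang at high dose). KLF10 gained a call with the replicate block at 0.066 (the mean high against low contrast), 0.22 (Palmul-tang against Sagunja-tang at high dose) and 0.19 (Sibjeondaebo-tang against Sagunja-tang at high dose). MLXIPL gained a call with the replicate block at 0.65 (low Sibjeondaebo-tang against vehicle). MLXIP lost its call with the replicate block at -0.11 (high Samul-tang against vehicle). ARRDC4 changed sign without a call with the gene length trend removed at -0.0025 (Palmul-tang medium against low), -0.011 (Samul-tang medium against low) and -0.022 (Sibjeondaebo-tang against Samul-tang at high dose). KLF10 changed sign without a call with the gene length trend removed at -0.026 (Sibjeondaebo-tang high against medium). MLXIP changed sign without a call with the gene length trend removed at 0.051 (high Sagunja-tang against vehicle), 0.0088 (high Sibjeondaebo-tang against vehicle), 0.0035 (low Palmul-tang against vehicle), 0.0093 (low Sibjeondaebo-tang against vehicle), 0.0014 (the mean high against low contrast), 0.0086 (medium Sibjeondaebo-tang against vehicle) and -0.055 (Palmul-tang against Sagunja-tang at high dose). MLXIP changed sign without a call with the gene length trend removed at 0.023 (Palmul-tang high against medium), 0.071 (Sagunja-tang high against low), 0.021 (Sagunja-tang high against medium), 0.0051 (Samul-tang medium against low), 0.012 (Sibjeondaebo-tang against Palmul-tang at high dose), -0.043 (Sibjeondaebo-tang against Sagunja-tang at high dose) and 2e-04 (Sibjeondaebo-tang high against medium). NEDD4L changed sign without a call with the gene length trend removed at 0.023 (the mean high against low contrast). TXNIP changed sign without a call with the gene length trend removed at -0.013 (low Sagunja-tang against vehicle). MLXIP gained a call with the gene length trend removed at -0.14 (Samul-tang against Sagunja-tang at high dose). TXNIP gained a call with the gene length trend removed at -0.16 (Sagunja-tang high against low), -0.10 (Sibjeondaebo-tang high against low) and -0.13 (Sibjeondaebo-tang high against medium). MLXIP lost its call with the gene length trend removed at -0.088 (high Samul-tang against vehicle). TXNIP lost its call with the gene length trend removed at -0.15 (Palmul-tang against Sagunja-tang at high dose). ARRDC4 changed sign without a call with only the groups compared in the fit at -1e-04 (Samul-tang medium against low). KLF10 changed sign without a call with only the groups compared in the fit at -0.0026 (Sibjeondaebo-tang high against medium). ARRDC4 gained a call with only the groups compared in the fit at 0.12 (the mean high against low contrast) and 0.20 (Sibjeondaebo-tang high against low). MLXIP lost its call with only the groups compared in the fit at -0.12 (high Samul-tang against vehicle). MLXIPL lost its call with only the groups compared in the fit at 0.85 (medium Samul-tang against vehicle). TXNIP lost its call with only the groups compared in the fit at -0.11 (high Sagunja-tang against vehicle), -0.11 (high Sibjeondaebo-tang against vehicle), -0.11 (medium Palmul-tang against vehicle), -0.16 (Palmul-tang against Sagunja-tang at high dose) and -0.16 (Palmul-tang high against medium).

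With each library left out in turn, the comparisons in which a call or a sign changed spanned these ranges of log2 fold change. ARRDC4 ran from -0.29 to 0.0058 (high Palmul-tang against vehicle), -0.24 to 0.054 (high Sagunja-tang against vehicle), -0.16 to 0.13 (high Samul-tang against vehicle) and -0.15 to 0.14 (high Sibjeondaebo-tang against vehicle). ARRDC4 ran from -0.31 to -0.020 (low Palmul-tang against vehicle), -0.34 to -0.042 (low Sagunja-tang against vehicle), -0.32 to -0.023 (low Samul-tang against vehicle) and -0.36 to -0.065 (low Sibjeondaebo-tang against vehicle). ARRDC4 ran from 0.10 to 0.14 (the mean high against low contrast), -0.31 to -0.020 (medium Palmul-tang against vehicle), -0.40 to -0.11 (medium Sagunja-tang against vehicle) and -0.32 to -0.022 (medium Samul-tang against vehicle). ARRDC4 ran from -0.28 to 0.011 (medium Sibjeondaebo-tang against vehicle), -0.14 to 0.011 (Palmul-tang against Sagunja-tang at high dose), -0.038 to 0.018 (the pairs of extracts at low) and -0.062 to 0.085 (Palmul-tang high against low). ARRDC4 ran from -0.063 to 0.10 (Palmul-tang high against medium), -0.077 to 0.071 (Palmul-tang medium against low), -0.057 to 0.056 (Samul-tang medium against low) and -0.016 to 0.050 (Sibjeondaebo-tang against Samul-tang at high dose). KLF10 ran from -0.18 to -0.11 (high Palmul-tang against vehicle), -0.30 to -0.17 (high Samul-tang against vehicle), -0.20 to -0.13 (high Sibjeondaebo-tang against vehicle) and -0.29 to -0.22 (low Samul-tang against vehicle). KLF10 ran from 0.041 to 0.075 (the mean high against low contrast), -0.26 to -0.19 (medium Sagunja-tang against vehicle), -0.31 to -0.13 (medium Samul-tang against vehicle) and -0.20 to -0.14 (medium Sibjeondaebo-tang against vehicle). KLF10 ran from 0.17 to 0.22 (Palmul-tang against Sagunja-tang at high dose), -0.025 to 0.070 (Palmul-tang medium against low), -0.0014 to 0.062 (Sagunja-tang high against low) and -0.054 to 0.085 (Samul-tang high against low). KLF10 ran from -0.097 to 0.079 (Samul-tang high against medium), -0.060 to 0.12 (Samul-tang medium against low), -0.049 to 0.0050 (Sibjeondaebo-tang against Palmul-tang at high dose) and 0.15 to 0.21 (Sibjeondaebo-tang against Sagunja-tang at high dose). KLF10 ran from -0.0054 to 0.13 (Sibjeondaebo-tang against Samul-tang at high dose) and -0.020 to 0.034 (Sibjeondaebo-tang high against medium). MLXIP ran from -0.18 to -0.024 (high Sagunja-tang against vehicle), -0.15 to -0.072 (high Samul-tang against vehicle), -0.12 to -0.042 (high Sibjeondaebo-tang against vehicle) and -0.069 to 0.0056 (low Palmul-tang against vehicle). MLXIP ran from -0.075 to 3e-04 (low Sibjeondaebo-tang against vehicle), -0.072 to -0.033 (the mean high against low contrast), -0.028 to 0.047 (medium Sagunja-tang against vehicle) and -0.055 to 0.10 (Palmul-tang against Sagunja-tang at high dose). MLXIP ran from -0.018 to 0.015 (Palmul-tang high against medium), -0.13 to 0.029 (Sagunja-tang high against low), -0.19 to -0.032 (Sagunja-tang high against medium) and -0.096 to 0.062 (Samul-tang against Sagunja-tang at high dose). MLXIP ran from -0.028 to 0.0057 (Samul-tang medium against low) and -0.062 to 0.095 (Sibjeondaebo-tang against Sagunja-tang at high dose). MLXIPL ran from -0.15 to 0.14 (high Sagunja-tang against vehicle), 0.56 to 1.09 (medium Samul-tang against vehicle), -0.019 to 0.10 (Palmul-tang against Samul-tang at high dose) and -0.42 to 0.043 (Palmul-tang high against medium). MLXIPL ran from -0.45 to 0.0075 (Palmul-tang medium against low) and -0.0046 to 0.29 (Samul-tang against Sagunja-tang at high dose). TXNIP ran from -0.13 to -0.088 (high Sagunja-tang against vehicle), -0.13 to -0.093 (high Sibjeondaebo-tang against vehicle), -0.011 to 0.028 (low Sagunja-tang against vehicle) and -0.14 to -0.092 (medium Palmul-tang against vehicle). TXNIP ran from -0.043 to 0.0095 (medium Sibjeondaebo-tang against vehicle), -0.19 to -0.14 (Palmul-tang against Sagunja-tang at high dose), -0.19 to -0.13 (Palmul-tang high against medium) and -0.091 to 0.019 (Sagunja-tang high against medium). TXNIP ran from 0.14 to 0.18 (Sibjeondaebo-tang against Palmul-tang at high dose), -0.025 to 0.013 (Sibjeondaebo-tang against Sagunja-tang at high dose) and -0.12 to -0.072 (Sibjeondaebo-tang high against medium).

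Among the pathway lists in the mean high against low contrast, the number of glucose uptake genes called lower was 1 with only the groups compared, and 1 to 2 with a library left out. Other arrestins called higher numbered 1 with the replicate block, 2 with only the groups compared and 0 to 1 with a library left out. TGF-beta pathway genes called lower numbered 5 with only the groups compared and 3 to 5 with a library left out. With a library left out, 1 to 3 ubiquitin ligases and 3 to 6 MAX and MLX network genes were called lower. The number of all tested genes called, given here beside that of the main analysis, moved by more than 1.5 times in these cases. With DESeq2, it was 486 against 301 (difference among 4 extracts in high against low), 814 against 317 (Palmul-tang against Sagunja-tang at high dose), 110 against 24 (Palmul-tang against Samul-tang at high dose), 5 against 1 (Palmul-tang medium against low), 4 against 1 (Samul-tang medium against low) and 107 against 17 (Sibjeondaebo-tang medium against low). Without the low-count filter, it was 1055 against 301 (difference among 4 extracts in high against low), 1387 against 317 (Palmul-tang against Sagunja-tang at high dose), 272 against 24 (Palmul-tang against Samul-tang at high dose), 120 against 0 (the pairs of extracts at low), 78 against 1 (Palmul-tang medium against low) and 2079 against 1205 (Sagunja-tang high against medium). Without the low-count filter, it was 81 against 0 (Sagunja-tang medium against low), 1746 against 953 (Samul-tang against Sagunja-tang at high dose), 75 against 1 (Samul-tang medium against low) and 240 against 17 (Sibjeondaebo-tang medium against low). With the replicate block, it was 460 against 301 (difference among 4 extracts in high against low), 1902 against 1205 (Sagunja-tang high against medium), 1473 against 953 (Samul-tang against Sagunja-tang at high dose) and 85 against 17 (Sibjeondaebo-tang medium against low). With only the groups compared in the fit, it was 2182 against 6391 (high Sagunja-tang against vehicle), 1779 against 3483 (medium Palmul-tang against vehicle), 1597 against 2867 (medium Sagunja-tang against vehicle), 1 against 317 (Palmul-tang against Sagunja-tang at high dose), 0 against 1 (Palmul-tang medium against low) and 0 against 1254 (Sagunja-tang high against low). With only the groups compared in the fit, it was 0 against 1205 (Sagunja-tang high against medium), 2 against 953 (Samul-tang against Sagunja-tang at high dose), 217 against 415 (Samul-tang high against medium), 5 against 1 (Samul-tang medium against low), 122 against 2055 (Sibjeondaebo-tang against Sagunja-tang at high dose) and 7 against 17 (Sibjeondaebo-tang medium against low). With the gene length trend removed, it was 724 against 1205 (Sagunja-tang high against medium) and 511 against 953 (Samul-tang against Sagunja-tang at high dose). With 1 library left out, the count moved by more than 1.5 times for at least 1 library in 26 of the comparisons, given by the lowest and highest count and, after each, the group and replicate left out. It ran from 206 (Sibjeondaebo-tang high 1) to 1969 (Sagunja-tang high 3) against 301 for difference among 4 extracts in high against low, 2884 (Sagunja-tang high 2) to 6923 (Sagunja-tang high 3) against 6391 for high Sagunja-tang against vehicle and 2285 (Samul-tang high 2) to 4852 (vehicle 1) against 4799 for high Samul-tang against vehicle. The range was 1663 (Palmul-tang low 2) to 3680 (vehicle 1) against 3547 for low Palmul-tang against vehicle, 1064 (Sagunja-tang low 2) to 3986 (vehicle 1) against 3812 for low Sagunja-tang against vehicle and 776 (Samul-tang low 2) to 3290 (vehicle 1) against 3067 for low Samul-tang against vehicle. The range was 2177 (Sibjeondaebo-tang low 3) to 3882 (vehicle 1) against 3839 for low Sibjeondaebo-tang against vehicle, 1591 (Palmul-tang medium 2) to 3956 (Palmul-tang medium 3) against 3483 for medium Palmul-tang against vehicle and 429 (Sagunja-tang medium 2) to 3095 (vehicle 1) against 2867 for medium Sagunja-tang against vehicle. The range was 633 (Samul-tang medium 2) to 3731 (vehicle 1) against 3512 for medium Samul-tang against vehicle, 2886 (Sibjeondaebo-tang medium 3) to 4533 (vehicle 1) against 4538 for medium Sibjeondaebo-tang against vehicle and 23 (Sagunja-tang high 2) to 3670 (Sagunja-tang high 3) against 317 for Palmul-tang against Sagunja-tang at high dose. The range was 1 (Samul-tang high 2) to 11 (Palmul-tang high 3) against 24 for Palmul-tang against Samul-tang at high dose, 728 (Palmul-tang high 1) to 909 (Palmul-tang medium 2) against 1214 for Palmul-tang high against medium and 0 (Palmul-tang low 1) to 1 (Palmul-tang medium 3) against 1 for Palmul-tang medium against low. The range was 140 (Sagunja-tang high 2) to 4222 (Sagunja-tang high 3) against 1254 for Sagunja-tang high against low, 47 (Sagunja-tang high 2) to 4434 (Sagunja-tang high 3) against 1205 for Sagunja-tang high against medium and 64 (Sagunja-tang high 2) to 4092 (Sagunja-tang high 3) against 953 for Samul-tang against Sagunja-tang at high dose. The range was 547 (Samul-tang low 2) to 682 (Samul-tang high 3) against 1313 for Samul-tang high against low, 156 (Samul-tang high 2) to 202 (Samul-tang high 3) against 415 for Samul-tang high against medium and 0 (Samul-tang low 3) to 1 (Samul-tang medium 3) against 1 for Samul-tang medium against low. The range was 435 (Palmul-tang high 3) to 547 (Palmul-tang high 1) against 674 for Sibjeondaebo-tang against Palmul-tang at high dose, 909 (Sagunja-tang high 2) to 3627 (Sagunja-tang high 3) against 2055 for Sibjeondaebo-tang against Sagunja-tang at high dose and 499 (Samul-tang high 2) to 1001 (Sibjeondaebo-tang high 3) against 1347 for Sibjeondaebo-tang against Samul-tang at high dose. The range was 1655 (Sibjeondaebo-tang high 1) to 2019 (Sibjeondaebo-tang high 3) against 2494 for Sibjeondaebo-tang high against medium and 3 (Sibjeondaebo-tang medium 3) to 20 (Sibjeondaebo-tang low 1) against 17 for Sibjeondaebo-tang medium against low.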
